A study of Mus musculus with 3 samples.

Results

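The regions described here are the open-chromatin features that lie 100 kb or more from the body of every protein-coding gene on the 19 mouse autosomes. They were picked by distance alone, from the RefSeq annotation of GRCm38.p6 (mm10), and no measured value entered the choice. There were 43358 such far regions among 308931 autosomal features (14.0%) and 315694 features in all, each 500 bp wide. Their median distance to a protein-coding gene was 255 kb, 9862 (22.7%) lay over 500 kb away, and the farthest lay 2269 kb away. The name "far from any gene" holds for protein-coding genes only: 6792 far regions (15.7%) overlapped a long non-coding RNA (lncRNA) gene, and 9584 (22.1%) lay 100 kb or more from every annotated gene of any kind.

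Long stretches without protein-coding genes, called gene deserts, often flank genes that direct development. Deserts can hold enhancers, short stretches of DNA where transcription factors bind and raise the activity of a gene on the same chromosome, at times over long distances. Enhancers tend to be open in fewer cell types than promoters, and in skin the fate of keratinocytes, fibroblasts and the neural-crest-derived melanocytes is set by factors that bind them. Openness of a region does not by itself name the gene it acts on, so each region below is placed by the genes on both sides of it, with no claim about its target.

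The study compared melanocyte-lineage nuclei of resting and activated mouse skin by ATAC-seq of single nuclei, an assay that reads the places where an inserted enzyme can reach the DNA. GFP-positive nuclei were sorted from the back skin of mice of the strain Dct-rtTA; Tre-H2B-GFP, and every group drank doxycycline for 5 days. The label rests on the Dct promoter, which is active in the melanocyte lineage. The age is 7 weeks in one entry and 8 weeks in another. Telogen (the rest phase of hair growth) was a pool of 12 mice, anagen (the growth phase, begun with Nair depilation cream) a pool of 8, and UVB a pool of 24 irradiated 3 times at 2.2 mJ/cm2. Telogen and anagen formed 1 library and UVB another, with 2 technical replicates in 1 matrix, so an effect of UVB and one of the library cannot be told apart. Each condition is 1 sample: there is no replicate check and no p-value, and the 95% intervals cover counting error only.

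After second copies of a barcode were dropped, telogen kept 2042 nuclei (5225945 counts), anagen 3753 (10397896) and UVB 6553 (16182770). Levels are CPM, the counts of a region scaled to 1000000 autosomal counts, so 3 counts correspond to 0.583, 0.293 and 0.189 CPM. Barcodes also carry a tag number that the labels do not explain. UVB tag number 19 held 51.6% of the UVB counts and 196 of 227 UVB fibroblast-open nuclei, and had the highest share of counts in far regions of the 15 UVB tag numbers with at least 50 nuclei. UVB values without it, with the classes rebuilt, are given where they differ. No barcode was shared by telogen and anagen, 289 were shared by UVB and telogen, and 217 by UVB and anagen.

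Nuclei were sorted into classes by their counts at marker genes, within 2 kb of the gene body, and so on sequence that no far region overlaps. A nucleus joined the marker list with the highest enrichment if it had at least 4 marker counts, 2 times the expected number and 1.5 times the enrichment of every other list. The classes are called "open at" the genes of a cell type, and 72.7% of nuclei joined none. Melanocyte-open nuclei numbered 741 of 12348 (6.0%), keratinocyte-open 591, fibroblast-open 519 and endothelial-open 455. Counts at melanocyte markers were 2.28 to 7.75 times their level in all nuclei in the melanocyte-open class, and at Schwann cell markers 0.36 to 0.63 times. In the other 3 classes, their own markers stood at 3.40 to 10.7 times the level in all nuclei. Telogen had 33 melanocyte-open nuclei with 47994 counts in all, so 1 telogen count there is worth 20.8 CPM.

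Some far regions sat at the annotated start of a lncRNA gene, and their sequence could be read from RefSeq start windows (GRCm38.p6; 250 bases before to 50 after a start). Of the far regions, 336 overlapped 382 windows of 326 lncRNA genes by at least 150 bases. Their median level, 1.86 CPM as a mean of the 3 conditions, stood above the 0.561 CPM of the other far regions. Windows are shown for the most open such region and for the region of highest fold in each of the 4 nucleus classes. Capitals mark matches, on either strand, to AP-1 (TGANTCA), TEAD (GGAATG) or loose M-box letters (TCANNTGA). Here N is any base, so an M-box match does not point to a melanocyte-lineage factor. ETS (CCGGAA) was also searched, and a base could count for more than 1 motif. The windows lie at chr1:7398047-7398346 (minus strand) for Gm26901, chr13:44400112-44400411 (minus) for Gm33958, chr4:137165017-137165316 (minus) for Gm13003, chr10:38122219-38122518 (minus) for Gm31378 and chr13:78483224-78483523 (plus) for Gm32067. Only Gm26901 (loose M-box letters, read as TCACCTGA) and Gm31378 (a TEAD motif) held a match.
Gm26901: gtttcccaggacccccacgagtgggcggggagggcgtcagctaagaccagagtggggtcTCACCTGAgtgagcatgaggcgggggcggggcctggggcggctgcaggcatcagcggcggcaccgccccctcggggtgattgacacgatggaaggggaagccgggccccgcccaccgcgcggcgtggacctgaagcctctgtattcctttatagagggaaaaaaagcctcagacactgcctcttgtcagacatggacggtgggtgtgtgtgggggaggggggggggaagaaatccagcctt
Gm33958: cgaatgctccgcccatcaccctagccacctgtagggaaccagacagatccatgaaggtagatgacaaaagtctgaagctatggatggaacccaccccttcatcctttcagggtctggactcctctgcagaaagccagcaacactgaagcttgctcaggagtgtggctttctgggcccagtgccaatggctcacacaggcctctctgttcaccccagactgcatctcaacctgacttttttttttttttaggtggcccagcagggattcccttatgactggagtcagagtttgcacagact
Gm13003: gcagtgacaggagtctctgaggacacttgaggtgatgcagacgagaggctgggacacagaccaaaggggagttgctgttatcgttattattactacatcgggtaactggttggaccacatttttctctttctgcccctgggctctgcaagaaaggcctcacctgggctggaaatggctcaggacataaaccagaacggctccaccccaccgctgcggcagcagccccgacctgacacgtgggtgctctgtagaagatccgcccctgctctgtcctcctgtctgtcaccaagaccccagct
Gm31378: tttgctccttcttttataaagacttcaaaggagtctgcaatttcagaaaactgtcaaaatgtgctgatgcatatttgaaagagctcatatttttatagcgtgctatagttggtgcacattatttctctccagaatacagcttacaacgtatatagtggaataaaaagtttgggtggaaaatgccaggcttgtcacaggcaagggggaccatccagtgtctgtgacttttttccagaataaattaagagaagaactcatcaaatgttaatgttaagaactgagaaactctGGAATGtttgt
Gm32067: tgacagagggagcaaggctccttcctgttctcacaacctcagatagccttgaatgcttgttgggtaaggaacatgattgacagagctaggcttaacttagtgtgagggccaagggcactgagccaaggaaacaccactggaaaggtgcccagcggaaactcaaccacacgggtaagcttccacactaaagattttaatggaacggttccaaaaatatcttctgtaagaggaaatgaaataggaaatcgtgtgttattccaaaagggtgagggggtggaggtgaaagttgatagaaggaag

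The Gm26901 start, 224 kb from Pcmtd1, was open in all 4 classes at 107, 96.2, 71.8 and 102 CPM in melanocyte-, keratinocyte-, fibroblast- and endothelial-open nuclei. Its window was 65.7% G or C and held 18 CpG pairs. The other 4 windows were 36.3% to 56.3% G or C and held 2 to 9 CpG pairs. Gm33958 (between Cd83 and Jarid2) stood at 23.0 CPM in melanocyte-open nuclei, at 0 to 0.58 CPM in the other 3 classes, and at 9.83 CPM (8 counts) in myeloid-open nuclei. Gm13003 (112 kb from Wnt4, which encodes a secreted signal) stood at 36.1 CPM in keratinocyte-open nuclei and at 0.29 to 0.99 CPM in the other 3. Gm31378, 698 kb from any protein-coding gene, had 50 counts in fibroblast-open nuclei (19.5 CPM) and 0, 0 and 2 counts in melanocyte-, keratinocyte- and endothelial-open nuclei. It was about as high in Schwann-open nuclei, at 18.5 CPM on 9 counts. Gm32067 (284 kb from Nr2f1) stood at 40.5 CPM in endothelial-open nuclei and at 1.27 to 3.40 CPM in the other 3, with 7.08 CPM in myeloid-open nuclei.

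Among the 382 windows at far regions, 7.85% held the ETS letters, against 19.1% of the windows of protein-coding genes and 15.1% of all windows of this length. AP-1 letters were in 11.0% (7.84% of all windows), TEAD letters in 20.7% (14.6%) and M-box letters in 8.12% (8.41%). Their median G or C content was 47.7%, against 57% at protein-coding genes. Windows of all non-coding genes held the ETS letters in 7.94% and were 48.3% G or C. In the 1632 windows as far from protein-coding genes but with no far region, the shares were 10.2% for AP-1, 16.0% for TEAD, 10.5% for M-box and 3.55% for ETS, at 44.3% G or C. Against these, windows at far regions held ETS and TEAD letters more often, M-box letters less often, and AP-1 letters at nearly the same share; none of these differences was tested. A match is a run of letters and no evidence that a factor binds.

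Far regions took 5.36% of autosomal counts in telogen, 5.51% in anagen and 6.54% in UVB, well under their 14.0% share of features. Counting intervals were within 0.02 of these values, but tag numbers with at least 50 nuclei spread over 4.02% to 8.09% in telogen (10 tag numbers), 3.82% to 6.61% in anagen (7) and 4.46% to 7.18% in UVB (15). These ranges overlap, and the differences between conditions were smaller than that spread. Depth moved with the share too: it was 7.20%, 8.13% and 7.28% in the shallowest 25% of nuclei and 4.65%, 5.00% and 6.55% in the deepest 25%, and its part in the result was not tested. Without tag number 19 the UVB share was 5.86%.

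Level fell with distance. Mean CPM per feature went from 3.95 to 4.11 inside a protein-coding gene to 1.60 to 1.98 at 100 to 200 kb, 1.17 to 1.48 at 200 to 500 kb and 0.653 to 0.766 beyond 500 kb, over the 3 conditions. There was no step at the 100 kb limit: features at 90 to 100 kb had means of 1.73, 1.77 and 2.02 CPM in telogen, anagen and UVB, and those at 100 to 110 kb had 1.60, 1.84 and 2.13. A median far region had 3, 5 and 8 counts, and 11.2%, 10.9% and 4.07% of them had none. The 5 farthest regions, 2248 to 2269 kb from a protein-coding gene in the Pcdh20 to Pcdh9 and Celf4 to Pik3c3 deserts, had 0 to 10 counts per condition.

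The 10 most open far regions ranked 191 to 2540 among all autosomal features, at distances of 104 to 224 kb. The highest, at chr15:68363088-68363588 between Zfat and Khdrbs3, lay 104 kb from Zfat and 21.8 kb from the microRNA gene Mir30d. It had 101 CPM in telogen, 96.5 in anagen and 128 in UVB. Another, at chr4:95161173-95161673, overlapped the lncRNA Junos, 109 kb from Jun, a subunit of the AP-1 factor induced by stress; it had 83.8, 48.5 and 97.3 CPM, and anagen was the lowest. A region 119 kb from Klf4, an epidermal barrier and pluripotency factor (chr4:55651108-55651608), had 76.6, 71.8 and 76.5 CPM, whose counting intervals overlap. At chr13:4771349-4771849, between Akr1e1 and Klf6, the values were 56.8, 66.7 and 103 CPM.

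Over all nuclei, the last 4 of these 10 regions stood more than 2-fold higher in UVB than in either other condition, a set chosen after the values were seen. The region between Bcl6 and Lpp (chr16:24282227-24282727) had 26.8, 34.4 and 82.7 CPM in telogen, anagen and UVB. The one 184 kb from the co-repressor gene Tle1 (chr4:72384868-72385368) had 24.5, 28.5 and 85.9 CPM, and the ones at chr3:37882416-37882916 and chr17:15993705-15994205 had 13.8, 38.2 and 86.1 CPM and 15.2, 36.7 and 83.4 CPM. Of the 4 classes, all 4 regions were highest in melanocyte-open nuclei, at 92.6, 167, 141 and 128 CPM, with 7.54 to 40.3 CPM in the other 3 classes. Schwann-open nuclei, of the same neural crest origin, came next at 90.1, 89.2, 63.1 and 97.5 CPM, and pericyte-open nuclei had 33.9 to 62.0 CPM. Within melanocyte-open nuclei UVB stood above anagen by 3.09 (2.23 to 4.31), 6.36 (4.65 to 8.80), 3.36 (2.60 to 4.34) and 3.36 (2.60 to 4.34) times. Telogen melanocyte-open nuclei had 125, 271, 167 and 125 CPM there on 6, 13, 8 and 6 counts. These counts are too few to set UVB against telogen in that class, and they also enter its mean levels given above. Makeup differed too: melanocyte-open nuclei were 1.62% of telogen, 8.55% of anagen and 5.91% of UVB nuclei. The part of makeup in the levels over all nuclei was not tested. In tag number 19 the UVB levels of the 4 regions were 47.1 to 62.8 CPM, below the 104 to 122 CPM of the other UVB nuclei.

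**Figure D1:**
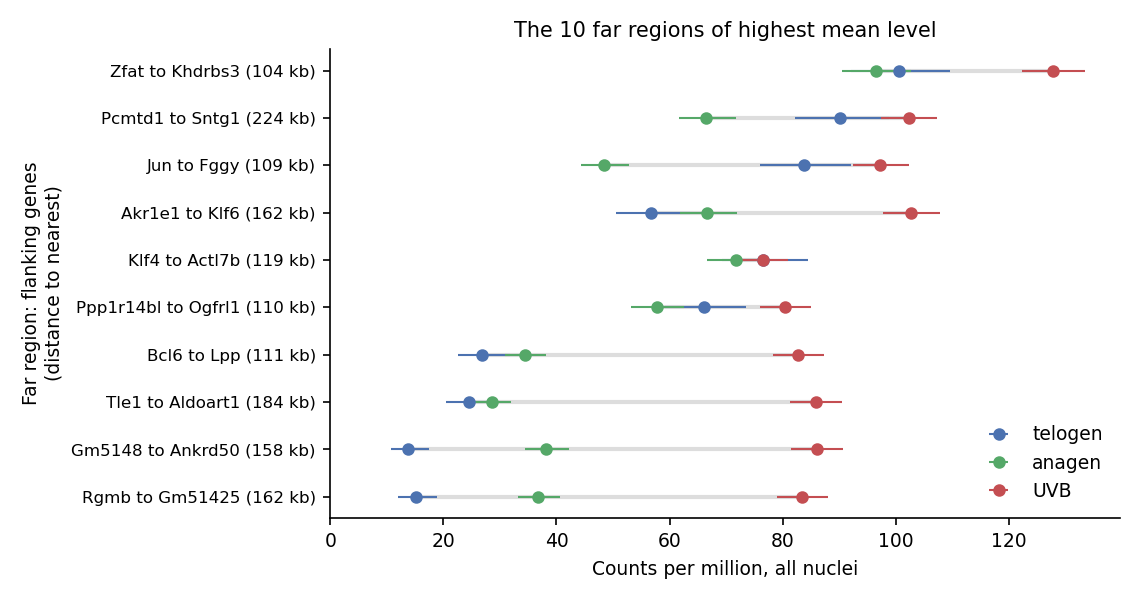
Level over all nuclei in CPM (x axis) for the 10 far regions of highest mean level, named by the genes on both sides and the distance to the nearer one (y axis). Points are the 3 conditions with 95% counting intervals; in the lowest 4 rows UVB lies at 82.7 to 86.1 CPM, away from telogen and anagen.

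Among features with enough counts to be tested, far regions were open in single classes more often than features near genes. Of the 3726 far regions with at least 30 counts over the 4 classes, 92.4% were at least 2-fold higher in exactly 1 class than in the mean of the other 3, against 72.6% of all 60794 autosomal features tested, and 4.32% against 24.3% were so in none. The share rose with distance, from 67.3% inside a gene through 73.8% up to 10 kb and 87.4% at 10 to 100 kb. Low counts alone can give such calls, and far regions have fewer counts. In the bin of 120 counts or more, which held 268 far regions, the shares were 87.7% and 36.3%. The count minimum also selects: a region of low level can reach it through the class where it is high. Only 3726 of 43358 far regions reached it, against 60794 of 308931 autosomal features, so these shares do not describe far regions as a whole.

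The fibroblast-open class took the largest share of calls here, but not under every setting. Of the tested far regions, 1707 (45.8%) were higher in fibroblast-open nuclei, against a background of 23.9% of all features. Melanocyte-open nuclei had 940 (25.2%; background 23.4%), keratinocyte-open nuclei 730 (19.6%; 20.1%) and endothelial-open nuclei 312 (8.37%; 11.4%). Melanocyte-open calls led instead at a marker lead of 3 times (39.2% against 33.7% fibroblast-open) and without deep nuclei (35.3% against 32.4%). The melanocyte and keratinocyte shares are near their backgrounds and are no result about far regions as a whole. Among far regions with 120 or more counts, melanocyte calls reached 40.7% against 13.9% of all such features. Fibroblast calls in this bin were 37.7%, also well above their share of all such features, so the excess was not particular to melanocyte-open nuclei. Keratinocyte calls (7.09%) and endothelial calls (5.97%) stayed near their shares of all such features (6.39% and 6.27%).

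**Figure D2:**
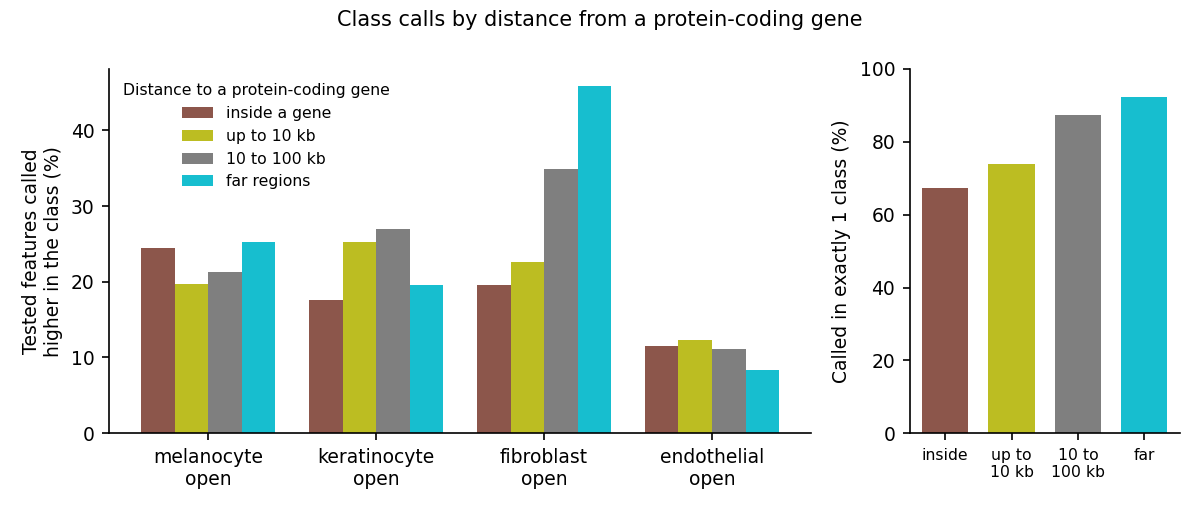
Left, the share of tested features (%, y axis) at least 2-fold higher in each nucleus class (x axis), by distance to a protein-coding gene (bar colour); right, the share called in exactly 1 class. The fibroblast-open bar rises from 19.6% inside genes to 45.8% in far regions, and the share called in 1 class from 67.3% to 92.4%.

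In summed counts, too, the fibroblast-open class stood first. Far regions took 7.56% (7.46 to 7.66) of counts in telogen fibroblast-open nuclei, 7.67% in anagen and 8.07% in UVB, the highest of the 4 classes in each condition. Without tag number 19 the UVB value was 7.08% on 39 nuclei, below telogen and anagen and still the highest of the 4 classes. Keratinocyte-open nuclei had 4.10%, 5.71% and 6.14%, and endothelial-open nuclei 4.20%, 4.92% and 6.52%, both lowest in telogen; without tag number 19 UVB was 5.28% and 6.36%. Melanocyte-open nuclei went the other way, with 6.60% (6.38 to 6.83) in telogen, 3.78% (3.75 to 3.81) in anagen and 6.14% (6.08 to 6.19) in UVB (6.05% without tag number 19). In the 4 anagen tag numbers with at least 20 melanocyte-open nuclei the share was 2.99% to 3.99% and in the 8 UVB ones 4.86% to 6.87%, and the ranges of anagen and UVB did not overlap. Telogen had no such tag number. Anagen melanocyte-open nuclei were deeper (median 3118 counts, against 1473 in telogen and 1571 in UVB). Their nuclei at or under the median depth had 5.07% and those over it 3.56%, beside 6.90% and 5.86% in UVB. Each condition was split at its own median, so these groups are not matched in depth, and the part of depth was not tested.

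**Figure D3:**
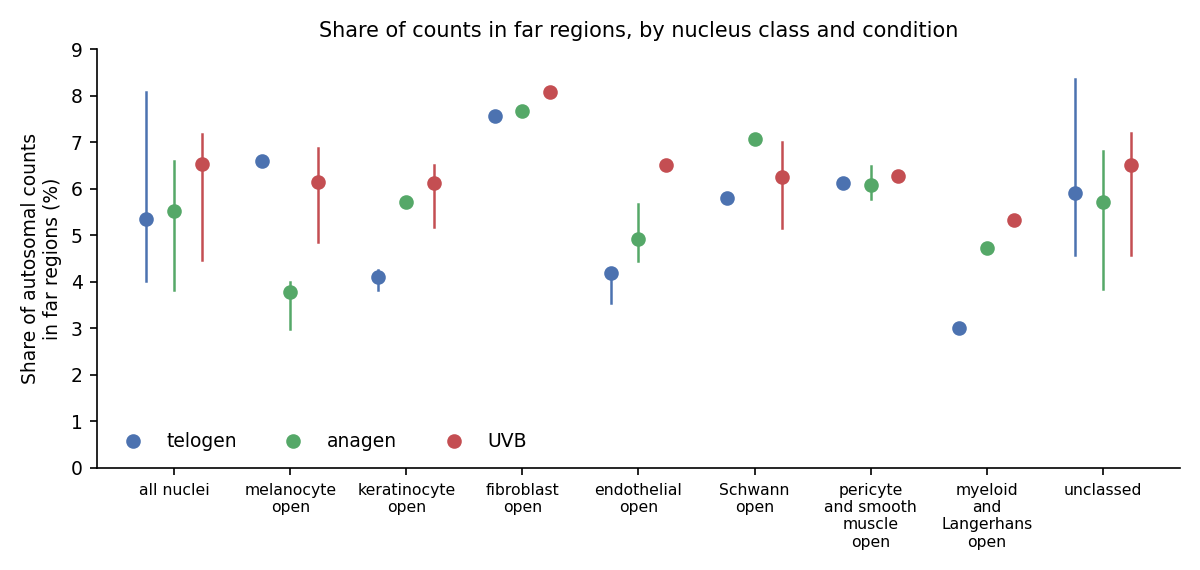
Share of autosomal counts in far regions (%, y axis) by nucleus class (x axis) and condition (colour). Points are sums over nuclei. Bars are the range over tag numbers with at least 20 nuclei in the class, or in all for all nuclei, where there were 2 or more. Anagen melanocyte-open nuclei lie at 3.78%, below telogen (6.60%) and UVB (6.14%), while fibroblast-open nuclei stay at 7.56% to 8.07%.

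In each class, 6 far regions were named by the highest fold among those with at least 30 counts in the class and a fold above 1 in every condition. Folds and counts outside a class refer to the other 3 of these 4 classes; Schwann-, pericyte- and myeloid-open nuclei are given apart. In the melanocyte-open class 1 lay between Tox3 and Chd9 (chr8:90716450-90716950) at 62.5 CPM in telogen (3 counts), 30.7 in anagen and 29.8 in UVB, with 3 counts in the other 3 classes together and a ratio of 54.1 (17.9 to 268). A region 132 kb from Col22a1, in the desert before the potassium channel gene Kcnk9 (chr15:72283333-72283833), had 20.8, 54.1 and 18.2 CPM, highest in anagen, against 3 counts in the other 3 classes, with 9.60 CPM in Schwann-open and 14.4 CPM in pericyte-open nuclei. One lay 111 kb from Trp63 (chr16:25572516-25573016), whose product is a master factor of the epidermis. It had 83.3, 7.81 and 31.1 CPM in melanocyte-open nuclei, and 4 counts in the other 3 classes together. The remaining 3 lay between Cldn23 and Prag1, between Gm765 and Foxp1, and between Pik3c3 and Rit2, the last with 19.1 CPM in Schwann-open nuclei beside 35.7 in melanocyte-open ones. Telogen carried much of these folds: over anagen and UVB alone they fell from 54.2 to 105 down to 11.1 to 48.6.

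Of the 6 keratinocyte-open regions, 3 lay in 1 desert, between Celf2 and Gata3, a factor of epidermal and hair follicle differentiation. At chr2:9701315-9701815, 155 kb from Gata3, the levels were 33.2, 40.3 and 50.4 CPM in telogen, anagen and UVB keratinocyte-open nuclei, and the other 3 classes had no count (at least 87.0-fold higher in summed counts, at a floor of 3 counts over those 3 classes). At chr2:9574005-9574505 the levels were 42.7, 51.8 and 27.6 CPM, again with no count in the other 3 (ratio 69.8 by the same setting, lower limit 55.2). At chr2:9487431-9487931 they were 28.4, 46.0 and 49.4 CPM with 4 counts in the other 3. Schwann-open nuclei had 19.3 CPM (8 counts) at chr2:9574005-9574505, and without tag number 19 its UVB level was 9.53 CPM on 4 counts. The others lay between Map3k1 and Ankrd55, Tcf4 and Ccdc68, and Agtr1b and Tbl1xr1, with 71 to 82 counts each in the class and 4 in the other 3 classes. Over the 6 regions, Schwann-open nuclei had 1.58 to 19.3 CPM, pericyte-open nuclei 1.61 to 14.4 and myeloid-open nuclei 0 to 5.24. Every one of the 6 was at 0 in melanocyte-open and in endothelial-open nuclei.

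Among the fibroblast-open regions was 1 in the desert beside Bmp4, a BMP family signal that acts in hair follicles (chr14:45965047-45965547, 307 kb from Ddhd1). It had 40.7, 38.7 and 58.1 CPM in fibroblast-open nuclei (UVB 7.94 CPM, 1 count, without tag number 19) and 1 count in the other 3 classes, a ratio of 265 (46.5 to 10538). One 257 kb from Ebf1, a factor of B cells and of mesenchymal cells (chr11:45265112-45265612), had 29.6, 44.0 and 57.3 CPM and 1 count in the other 3. Between the aggrecanase gene Adamts5 and N6amt1 (chr16:87242014-87242514) the levels were 66.6, 61.8 and 31.2 CPM with no count in the other 3, at least 86.6-fold higher in summed counts. The remaining 3 lay between Fam170a and Pudp, Nrep and Epb41l4a, and Pmepa1 and 1700021F07Rik. Pericyte-open nuclei had 3.22 to 29.2 CPM, Schwann-open nuclei 0 to 31.3 CPM and myeloid-open nuclei 0 to 17.6 CPM at these 6 regions.

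Of the 6 endothelial-open regions, 1 was 108 kb from Rps6kc1 in the desert that begins at Prox1, the factor that sets lymphatic endothelial fate (chr1:190664581-190665081), with 91.4, 32.6 and 11.9 CPM. Another pair lay beyond Foxl1, at the end of a cluster of forkhead genes (chr8:121271127-121271627 and chr8:121382717-121383217), with 84.6, 32.6 and 26.8 CPM and 77.9, 68.0 and 35.8 CPM. The highest, between Stt3b and Gadl1 (chr9:115680687-115681187), had 115, 54.4 and 20.9 CPM, 2 counts in the other 3 classes, and 6.44 and 6.05 CPM in Schwann- and myeloid-open nuclei. UVB was the lowest of the 3 conditions in all 6, and telogen the highest. Without telogen, the folds of 5 of the 6 were 1.56 to 2.13 times smaller. Without tag number 19, the folds of 2 melanocyte-, 4 keratinocyte-, 2 fibroblast- and 1 endothelial-open region were more than 1.5 times smaller.

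**Figure D4:**
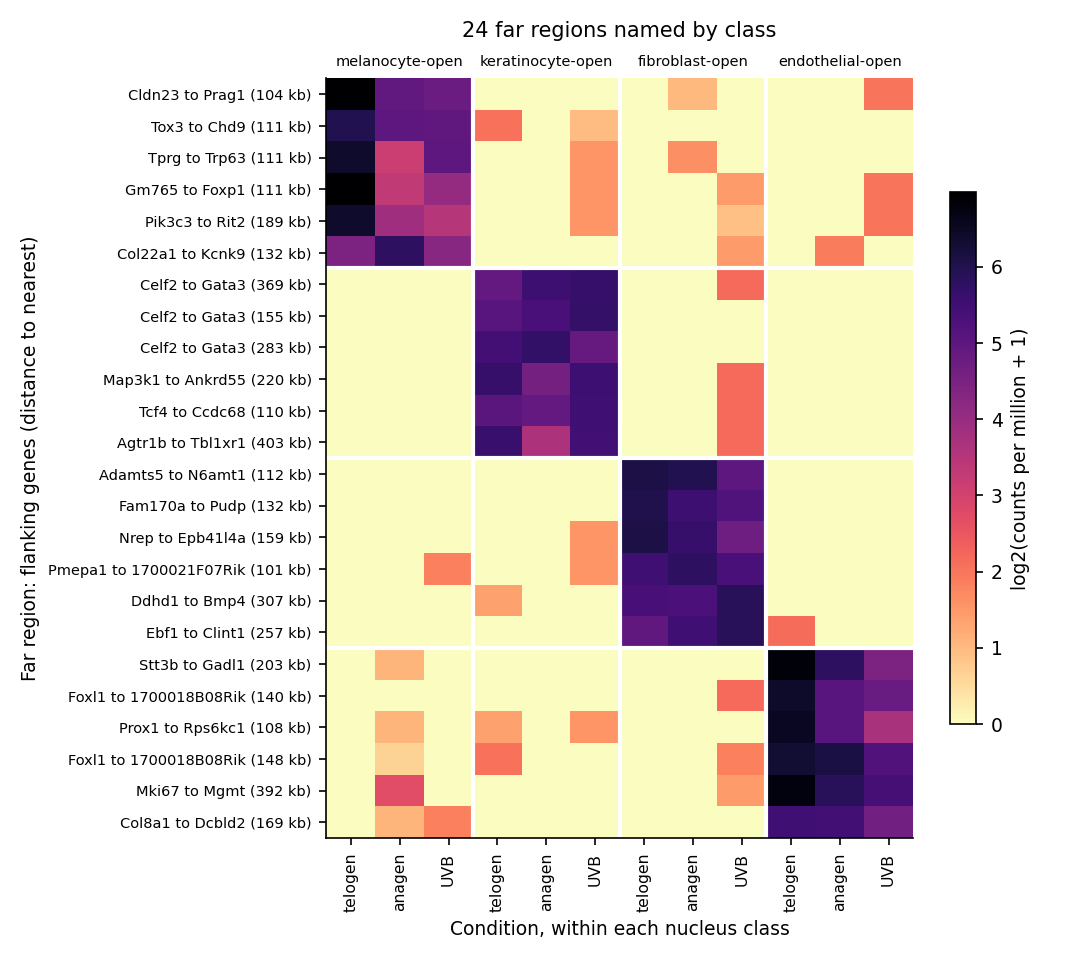
Heat map of log2(CPM + 1) for the 24 far regions named by class (rows, with flanking genes and distance to the nearer one) in each nucleus class and condition (columns). Dark blocks run along the diagonal, and the rows were chosen for that pattern; within the endothelial-open block the colour lightens from telogen to UVB, and telogen melanocyte-open values rest on 1 to 6 counts.

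Of the 43358 far regions, 43328 fell into 1271 of the 18550 stretches between neighbouring protein-coding genes, and 30 lay beyond the end genes of a chromosome. As few as 201 stretches held 50% of the far regions. The stretch with most lay between Zeb2, a factor of neural crest and melanocytes, and Acvr2a (305 far regions over 3.70 Mb). Of its 40 tested regions, 17 were called in melanocyte-open and 20 in fibroblast-open nuclei, and its summed level in melanocyte-open nuclei was 1000, 378 and 1227 CPM in telogen, anagen and UVB. Slc10a2 to Efnb2 held 234, Nmbr to Cited2 227 and Olfm4 to Pcdh17 204, the last with no region that reached the count minimum. Klf4 to Actl7b held 229 in 1.21 Mb, the densest of the 5 at 227 per Mb of far sequence. Of its 67 tested regions 35 were called in fibroblast-, 21 in keratinocyte-, 8 in endothelial- and 3 in melanocyte-open nuclei. Beside the calls of both stretches, the shares of all tested far regions were 45.8%, 19.6%, 8.37% and 25.2% in the same order of classes.

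In some deserts the summed level was much higher in 1 of the 4 classes. Among stretches with at least 10 far regions, the highest fold of summed level in melanocyte-open nuclei was 12.6 between Col22a1 and Kcnk9 and 12.4 between Atg4c and Foxd3, a neural crest factor. The Kcnk9 stretch had 89.6 CPM in melanocyte-open, 51.3 in pericyte-open, 30.4 in Schwann-open and 21.3 in myeloid-open nuclei. The Foxd3 stretch had 335 CPM in melanocyte-open nuclei, 204 in Schwann-open, 124 in pericyte-open and 7.53 to 52.0 in the other 3 of the 4 classes. All 8 of its tested regions were called melanocyte-open. Stretches were chosen by fold from the same counts that give the calls, so the calls here and below are no separate support. Of all tested far regions, 25.2% were called in melanocyte-, 19.6% in keratinocyte-, 45.8% in fibroblast- and 8.37% in endothelial-open nuclei. Keratinocyte-open nuclei led between Tcerg1l and Mapk1ip1 (21.8-fold, 1 tested region) and between Rragc and Pou3f1 (18.4-fold, 6 of 6), a POU factor of epidermis and Schwann cells. In fibroblast-open nuclei the leading stretches were Spdl1 to Slit3 (23.2-fold, 5 of 5), a guidance cue, and Raet1d to Slc2a12 (21.4-fold, 1 tested region). Endothelial-open nuclei led between Zswim2 and Calcrl (18.6-fold, 3 of 3), the adrenomedullin receptor of vessels, and beyond Foxl1 (13.6-fold, 9 of 10). In the 6 stretches led by these 3 classes, Schwann-, pericyte- and myeloid-open nuclei each stayed below the leading class, at 0 to 93.2 CPM. Without tag number 19 all 8 stretches kept their leading class, at 11.0- to 52.3-fold, on nuclei that were part of the choice.

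Neighbouring far regions tended to be open in the same class. Among pairs of consecutive regions each called in exactly 1 class, the class was the same in 73.7% of 893 pairs under 5 kb apart, 59.4% of 635 at 5 to 20 kb, 54.9% of 860 at 20 to 100 kb and 49.4% of 356 at 100 kb or more within a stretch. Across the border to the next stretch it was 33.6% of 696 pairs, and the classes' own shares give 33.4%. Regions a few kilobases apart may belong to 1 open domain, so pairs are not independent.

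A list of 50 developmental regulators was followed as well, all of its stretches included in the counts. Of these, 48 flanked 63 stretches with 3083 far regions, 7.11% of all far regions on 6.57% of the far sequence. Their class calls differed from gene to gene. The stretch after Ebf1 had 17 of 20 tested regions called in fibroblast-open nuclei (5.11-fold in summed level), and that before Irx1, a patterning factor, 9 of 9 (6.01-fold). Keratinocyte-open nuclei led in 5 of 5 before the signal gene Bmp2 (8.28-fold), 11 of 15 between the epithelial factors Klf5 and Klf12 (3.92-fold) and 7 of 9 before Sox9, a factor of hair follicle stem cells (3.64-fold). Melanocyte-open nuclei led on both sides of Sox2 (3 of 3 before it, 3.43-fold; 4 of 6 after it, 3.09-fold) and after Bcl11a (12 of 22, 2.15-fold). Over the whole list, 296 regions were tested, and 26.4%, 28.4%, 40.2% and 5.07% were called in melanocyte-, keratinocyte-, fibroblast- and endothelial-open nuclei, beside 25.2%, 19.6%, 45.8% and 8.37% of all far regions.

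MicroRNAs are short RNAs that lower the output of messenger RNAs, chosen mainly through the seed, bases 2 to 8, shown in capitals. Of 919 autosomal hairpins in RefSeq, 100 lay 100 kb or more from a protein-coding gene, and 18 had a far region within 1 kb (15 regions). The sequences shown are miR-205-5p, known from epithelia, and miR-125b-5p, known from mesenchyme, each near a region with at least 30 counts over the 4 classes. Also shown are the pairs that share a seed, miR-100-5p with miR-99a-5p and miR-29a-3p with miR-29b-3p.
mmu-miR-205-5p: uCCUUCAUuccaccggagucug
mmu-miR-125b-5p: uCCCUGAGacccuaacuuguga
mmu-miR-100-5p: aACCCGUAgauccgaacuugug
mmu-miR-99a-5p: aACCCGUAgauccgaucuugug
mmu-miR-29a-3p: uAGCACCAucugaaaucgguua
mmu-miR-29b-3p: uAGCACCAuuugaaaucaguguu

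The region at chr1:193508188-193508688, within 1 kb of Mir205, had 29.8 CPM in keratinocyte-open nuclei (10, 9 and 23 counts in telogen, anagen and UVB), 0 counts in melanocyte-open nuclei, 2 in fibroblast-open and 4, all in UVB, in endothelial-open nuclei. A second region near Mir205, chr1:193506336-193506836, had 7 counts in keratinocyte-open and 1 in melanocyte-open nuclei. Near Mir125b-1, the region at chr9:41580652-41581152 had 18.5 CPM in fibroblast-open nuclei (22.2, 16.8 and 16.5 CPM by condition) and 0.37 to 3.71 CPM in the other 3. The second region there, chr9:41582041-41582541, was highest in keratinocyte-open nuclei, at 4.47 CPM on 4 counts, with 2.14 CPM on 7 counts in fibroblast-open nuclei. miR-100-5p and miR-99a-5p share the seed shown. Their regions were low: 0.58, 4.30 and 2.64 CPM over all nuclei at Mir100, highest in anagen, and 2.33, 0.49 and 2.39 CPM at Mir99a and Mirlet7c-1, lowest in anagen. One region lay near both Mir29a and Mir29b-1, 104 kb from Klf14, with 2.53, 1.37 and 1.89 CPM and at most 2.32 CPM in any of the 4 classes.

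Between conditions, more far regions were higher in UVB than features as a whole. Over all nuclei, 37.5% of 10869 tested far regions were at least 2-fold higher in UVB than in telogen (background 21.3%) and 9.61% lower (13.8%). Against anagen, 30.4% of 13071 were higher (16.6%) and 15.3% lower (21.9%). Anagen over telogen gave 34.8% of 7191 higher (29.9%) and 14.4% lower (14%), close to the background when all tested regions were pooled. Among far regions with 120 or more counts, 335 of 869 (38.6%) were higher in anagen than in telogen, against 16.4% of all such features. In that bin UVB over telogen gave 46.2% higher (17.9%) and UVB over anagen 30.4% (11.4%), so the excess was not particular to UVB. Summed over all far regions, the level was 1.22 (1.22 to 1.23) times telogen and 1.19 (1.18 to 1.19) times anagen in UVB, and 1.03 (1.02 to 1.03) times telogen in anagen. These contrasts share samples, so UVB over telogen and UVB over anagen are not independent.

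These shares moved with tag number 19. Without it, 28.2% of far regions were lower in UVB than in telogen (25.1% of all features) and 36.0% lower than in anagen (31.0%), while 41.5% (22.2%) and 24.2% (10.8%) were higher, and the summed ratios were 1.09 and 1.06. UVB over telogen also fell below 1 (log2 of -0.12) where second copies were found by shared open features, and pairs of single tag numbers went either way (log2 of -0.86 to 0.84 for UVB over telogen). Makeup moved with these values: fibroblast-open nuclei were 6.68% of tag number 19 and 0 to 3.05% of each other UVB tag number with at least 50 nuclei. Its part in the result was not tested.

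Within melanocyte-open nuclei the rise in UVB over anagen was larger and changed little without that tag number. Of 724 tested far regions, 334 (46.1%) were at least 2-fold higher in UVB (background 18.4%) and 120 (16.6%) lower (22.2%). Among those with 120 or more counts, 42 of 59 (71.2%) were higher and 0 lower, against 33.4% and 0.61% of all features. The summed level was 1.62 (1.61 to 1.64) times that in anagen, and 1.60 without tag number 19 (42.1% higher, 21.1% of all features). Only 2 UVB tag numbers (18 and 19) and 2 anagen ones (3 and 5) had at least 50 melanocyte-open nuclei. Their pairs gave log2 ratios of 0.67 to 0.81, beside 0.70 for the sum. With at least 20 such nuclei the shares spread more, over 2.99% to 3.99% in 4 anagen and 4.86% to 6.87% in 8 UVB tag numbers. The log2 ratio was 0.37 without deep nuclei and 0.39 when scaled to counts at gene ends.

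**Figure D5:**
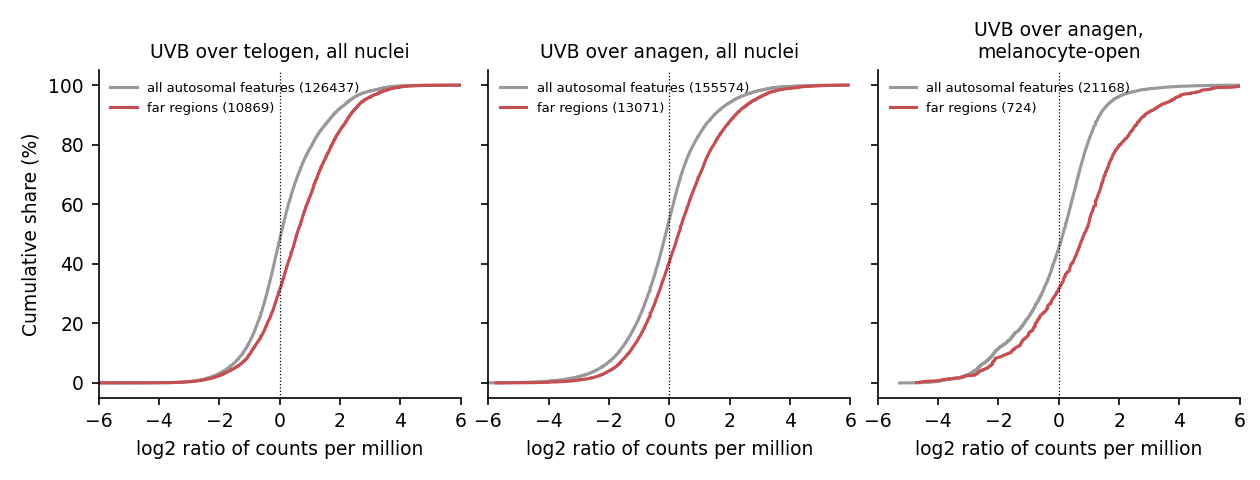
Cumulative share (%, y axis) of tested features at or below a log2 ratio of CPM (x axis), for far regions (red) and all autosomal features (grey), with the number tested in brackets. The red curve lies right of the grey one in the 3 panels, by most in melanocyte-open nuclei, where the median log2 ratio was 0.85 in far regions and 0.14 over all features.

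By size of ratio, the regions highest in UVB over anagen melanocyte-open nuclei included 1 in the desert after Nr2f1, a neural crest factor (chr13:78641994-78642494, 443 kb away), with 1 count in anagen (0.56 CPM) and 51 in UVB (66.2 CPM), a ratio of 119 (20.4 to 4777). One 395 kb from Sox4 (chr13:28553430-28553930) had 1 and 30 counts, and one 357 kb from Sox11 (chr12:26976618-26977118) had 2 and 55; both genes encode SOX factors of progenitor cells. Another, between Eea1 and Btg1 (chr10:96181900-96182400), had 1 and 43 counts. At the opposite end stood regions with 39 to 61 counts in anagen and 1 in UVB, in the deserts before Zfhx4 (34.0 and 1.30 CPM) and Id4, an inhibitor of helix-loop-helix factors (26.8 and 1.30 CPM), and near Abca13, Ryr2 and Lrriq3. Telogen had 0 to 2 counts at each of these regions, too few to place it.

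Melanocyte-open nuclei of telogen could be set against the others only in sum. Their far regions together stood at 3170 counts, and anagen was 0.572 (0.552 to 0.593) times and UVB 0.929 (0.896 to 0.963) times that level. The UVB ratio rose above 1 (log2 of 0.20) when markers were read at gene ends only, so its direction depends on that choice.

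Regions with the largest ratios over all nuclei had almost no counts in 1 condition. A region 108 kb from Kctd8 (chr5:69001239-69001739) had 1, 156 and 40 counts in telogen, anagen and UVB, and a pair in the Akr1e1 to Klf6 desert had 1, 113 and 19 counts and 1, 96 and 23. In the Klf4 to Actl7b desert a region 354 kb from Klf4 (chr4:55886320-55886820) had 50 counts in telogen, 1 in anagen and 94 in UVB. One between Fign and Grb14 (chr2:64522967-64523467) had 1, 69 and 212 counts, highest in UVB, and one 641 kb from Hdgfl1 (chr13:26126604-26127104) had 47, 30 and 1, lowest in UVB.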

How the data were processed

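Single-nucleus ATAC-seq was deposited by the authors as raw whole-number counts, in a matrix for each condition with the same 315694 features. The submitters' processing notes name Bowtie2, SAMtools, MACS2 and mm10 (GRCm38), with no version; how reads became counts is not given in the sources used here. Of the entries above 0, 61.1% are 2 and 31.0% are 1, so counts mostly come in pairs and intervals are too narrow.

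Barcodes repeated after the tag were counted once per condition (543, 1721 and 62 second copies). No doublet caller was run. Counts were summed over nuclei and given as CPM. A region was tested with at least 30 counts and called at 2-fold or more; a side at 0 was set to 3 counts. Class levels are means of the 3 conditions' CPM. Ratios have exact conditional binomial and shares Clopper-Pearson 95% intervals, for counting error only. The steps were tested on simulated data. Named regions were the 10 most open, the 5 farthest, 6 per class and the 5 highest and 5 lowest per contrast with at least 30 counts and an interval off 1; stretches were the 5 with most members and 2 per class. Of telogen contrasts in melanocyte-open nuclei, only sums are given. The members and lists were chosen with earlier results of these data known. A region that the rule names and a stretch of the regulator list are not reported here. No genome was used here, so sequences come from RefSeq start windows and microRNAs only. Computation used numpy 2.4.6, scipy 1.17.1, pandas 2.3.3 and, for plots, matplotlib 3.10.9 under Python 3.11.15.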

Additional observations from a re-analysis of the deposited data

Results flagged for a closer look

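Summed levels of far regions moved in opposite directions between nucleus classes under 1 contrast, with counting intervals on opposite sides of 1. Anagen over telogen was 0.572 in melanocyte-open nuclei, 1.39 in keratinocyte-open nuclei and 1.17 in endothelial-open nuclei. UVB over telogen was 0.929 in melanocyte-open nuclei, 1.5 in keratinocyte-open, 1.07 in fibroblast-open and 1.55 in endothelial-open nuclei. The directions of the melanocyte- and fibroblast-open ratios depended on the setting. With markers at gene ends, the melanocyte-open log2 ratio was positive, at 0.196. Without the UVB tag number that held most counts, the fibroblast-open share was 7.08% in UVB (39 nuclei), below 7.48% in telogen. Keratinocyte- and endothelial-open shares in UVB stayed above telogen there. Each condition is 1 sample and the melanocyte-open telogen level rests on 33 nuclei, so these differences between classes were not tested.

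The X chromosome, outside the autosomal comparison, held 1294 features 100 kb or more from a protein-coding gene, of 6763. They took 6.61% of X counts in telogen, 5.94% in anagen and 7.18% in UVB, above the limit that a count of 0 allows.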

How the results depend on the processing

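No paired analysis was possible because each condition is 1 sample. Shares of counts in far regions for telogen, anagen and UVB were 8.68%, 8.78% and 10.3% at 50 kb, 2.71%, 2.72% and 3.26% at 200 kb, and 0.809%, 0.802% and 0.978% at 100 kb from any annotated gene; 5.57%, 5.62% and 6.69% with 1 per feature and nucleus; 5.94%, 6.22% and 6.41% without deep nuclei; 5.22%, 5.32% and 6.48% without nuclei under 1000 counts; 12.6%, 14.7% and 16.3% scaled to counts at gene ends; and 6.63%, 6.58% and 8.13% with the top 1% of features left out. Telogen and anagen were 5.68% and 5.65% with all deposited barcodes and 7.12% and 5.61% with copies found by shared open features. In alternatives chosen after seeing the data, UVB was 5.86% without its tag number 19 and telogen 4.96% without its tag number 10. UVB was the highest of the 3 in each of these but the overlap setting for copies.

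Over all nuclei, the log2 ratio of summed level in anagen over telogen turned negative at 100 kb from any gene (-0.012), with all barcodes (-0.0083), with overlap copies (-0.343), without the top 1% (-0.013) and in the lowest pair of tag numbers (-1.08). UVB over telogen did so with overlap copies (-0.123) and in the lowest pair (-0.857), and UVB over anagen in the lowest pair (-0.566). In melanocyte-open nuclei UVB over telogen turned positive with markers at gene ends (0.196).

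Far regions lower in UVB than in telogen were 16.5% at a minimum of 10 counts, 6.39% at 60 and 28.2% without tag number 19, and lower than in anagen 36.0% without it; lower in anagen than in telogen were 8.82% without deep nuclei. In melanocyte-open nuclei the share lower in UVB than in anagen was 8.85% with 1 per feature, 2.97% without deep nuclei, 9.78% at 60 counts, 3.02% at a class lead of 3 times and 5.86% with markers at gene ends. Keratinocyte-open calls were 12.9% at 100 kb from any gene, 12.1% with 1 per feature and 12.7% at a lead of 3, endothelial-open calls 5.06% with 1 per feature, 14.7% at 10 counts and 13.5% at a lead of 3, and melanocyte-open calls 39.2% at a lead of 3, where fibroblast-open calls were 33.7%. Without deep nuclei melanocyte-open calls (35.3%) also passed fibroblast-open ones (32.4%). Counted 100 kb from any gene, the 5 fullest stretches held 60, 114, 32, 51 and 106 regions, from Zeb2, Slc10a2, Klf4, Nmbr and Olfm4. The causes were not tested. The other 185 values of the main comparisons stayed within 1.5 times or their counting interval. Depth limits single regions most in telogen melanocyte-open nuclei.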

Other observations

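Far regions made up 6.85% of the features of chromosome 19, 7.59% of chromosome 7 and 8.01% of chromosome 11, and 20.0% of chromosome 3 and 21.8% of chromosome 13. Other classes of nuclei differed as well in how much of their signal lay there. Myeloid and Langerhans-open nuclei had the lowest telogen share, 3.00% (2.96 to 3.05) of counts, with 4.73% in anagen and 5.33% in UVB. Pericyte and smooth muscle-open nuclei had 6.12%, 6.09% and 6.27%, the smallest spread over conditions of the classes with at least 200 nuclei. Schwann-open nuclei had 5.80%, 7.06% and 6.25%, highest in anagen, where melanocyte-open nuclei had their lowest share.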
